A study of Salmo salar with 6 samples.

Results

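The nuclear genes whose products build the mitochondrial ribosome and bring proteins into the mitochondrion were followed in the head kidney (HK) of Atlantic salmon (Salmo salar) fed a control diet or a diet with the olive fruit extract AQUOLIVE. The rule that picks the members reads only the gene symbol, and it was set with earlier results of these data known. They are the mitochondrial ribosomal proteins (mrpl and mrps), the inner and outer membrane translocases (timm and tomm), the CHCHD family, the mitochondrial translation factors (gfm, mtif and mtrf) and the factors of mitochondrial transcription (tfam and tfb). Of 86 such symbols in the RefSeq gene table of the species, 75 had a probe on the array, among 8072 genes that could be named. These 75 genes were read by 76 of the 42386 probes. The 11 symbols without a probe were tfam, mrpl2, mrpl12, mrpl17, mrpl23, mrpl28, mrpl34, mrps17, mrps30, timm29 and chchd3a.

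Mitochondria keep a small genome that codes for a few subunits of the respiratory chain. These subunits are made on a ribosome of their own, whose proteins are coded in the nucleus, made in the cytosol and imported. Precursors cross the outer membrane through the TOM complex and the inner membrane through the TIM23 or TIM22 complex, while small TIM proteins and CHCHD4 serve the space in between. In bony fish the HK makes blood and immune cells, and it also holds interrenal and chromaffin endocrine cells.

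The control fish received the basal diet without the extract, and the AQUOLIVE fish received it with 0.15% of the extract, both for 133 days, during which the juveniles passed from the parr to the smolt stage. RNA of 18 fish per diet was joined into 3 pools of 6 fish, with 1 fish from each replicate tank in a pool, and each pool was hybridized to its own one-color Agilent array. The unit compared is the pool, so the spread given here is between pools and not between single fish. Diet was given by tank, and all pools of a diet drew on the same tanks. Variation between tanks is therefore not part of the spread, the standard errors or the p-values given here. No age, sex or strain of the fish was used here.

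Values are the log2 of the processed signal after loess normalization against the control arrays, and log2 FC is the mean of the AQUOLIVE pools minus that of the control pools. Between 42.5% and 60.9% of probes were well above background on the control arrays, and between 54.1% and 76.0% on the AQUOLIVE arrays, with the lowest share in control pool 3. The slope of the spike-in transcripts was 0.81 to 0.889 on the control arrays and 1.05 to 1.08 on the AQUOLIVE arrays. Slide numbers form a separate series for each diet, and the control arrays were scanned first, so diet cannot be told apart from slide series or order of scanning. Of the 76 member probes, 75 (74 genes) were kept because at least 3 of the 6 arrays read them well above background. Of these, 68 were above background on every array (90.7%, beside 64.5% of all kept probes). Each kept member was above background on some array of either diet. The probe left out was timm10b, above background on 2 arrays.

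Blood cell markers served to check the tissue. Of 12 erythroid and 10 B-cell markers listed, 4 each had a probe. All 4 erythroid probes (hba, alas2, rhag and tfr1a) and all 4 B-cell probes (cd79b, cd37, blnk and tnfrsf13b) were above background on every array. The summed level of the macrophage markers (4 of 12 listed genes had a probe, 3 of them a value on each array) was 14.81 to 15.53 on the log2 scale in the control pools and 14.28 to 14.49 in the AQUOLIVE pools, and that of the T-cell markers (5 probes of 3 of the 11 listed genes) was 9.26 to 10.26 and 10.33 to 10.51. The diets did not overlap in these 2 sums. Only 2 of the 5 T-cell probes were above background on every array, so that sum includes values not well above background. The single T-cell probes did not share a sign, with log2 FC of -1.12 and 0.68 for cd3e, 1.66 and 0.67 for cd8a and -0.47 for gata3. The macrophage probes were all lower, from -0.85 for cd68 to -0.04 for cd74a. No probe of either list passed limma's adjusted threshold. The diets overlapped in the sums of the erythroid, B-cell, granulocyte and interrenal markers, and of cdh17 and ckmb, the only renal tubule and muscle markers with a kept probe. The probe of cyp17a1, a steroid-making enzyme of the interrenal cells, was well above background on none of the 6 arrays. The part of cell composition in the results below was not tested. In RNA of whole tissue, fewer cells of a type and less RNA per cell cannot be told apart.

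As a group, the members were centered near 0. Their median log2 FC was -0.01, beside -0.02 over all 25826 kept probes, and the middle of the distribution, from the lower to the upper quartile, ran from -0.21 to 0.30, beside -0.44 to 0.44 over all kept probes. The members divided into 37 higher and 38 lower with the AQUOLIVE diet (49.3% higher, beside 48.6% of all kept probes). An absolute log2 FC of at most 0.5 was found for 56 of the 75 probes (74.7%), beside 55.1% of all kept probes. With only probes above background on all 6 arrays, these shares were 79.4% and 64.7%. The part of signal strength in the narrower spread of the members was not tested. The 95% confidence interval of the log2 FC lay within 1 on either side of 0 for 44 of the 75 probes (58.7%), beside 32.2% of all kept probes. For the others it reached past 1 on at least 1 side, and in 9 of those, the members with an unadjusted limma p under 0.05, it did not hold 0.

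No member passed limma's test after Benjamini-Hochberg adjustment over all kept probes (smallest adjusted p = 0.13, for mrps14), where 0.0155% of all kept probes passed. The methods' t-test after the same adjustment called 0 members as well (smallest adjusted p 0.148). At limma's unadjusted p under 0.05, 5 members were higher, beside 9.56% of all kept probes, and 4 were lower, beside 8.58%, which makes 12% of the members in both directions together. The methods' threshold, an unadjusted p under 0.05 in an unpaired test with an absolute log2 FC of at least 0.8, was passed by 4 members with a higher signal, beside 5.22% of all kept probes, and by 1 with a lower signal, beside 3.83%. The members' share past that threshold was 6.67%. In 74 member probes no array lacked a value. Among these, the 3 AQUOLIVE pools all lay above the 3 control pools in 9, beside 14.7% of all such probes, and all below them in 7, beside 15.0%. Together these were 21.6% of the members, against 29.7% of all such probes. In these values, each of these shares of the members was near or below that of the whole array. The signs are relative to the loess normalization: without any scaling between arrays, as deposited, the median log2 FC was 0.86 for the members and 0.98 for all kept probes, and 70.8% of the members did not overlap, beside 46% of all probes.

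**Figure D1:**
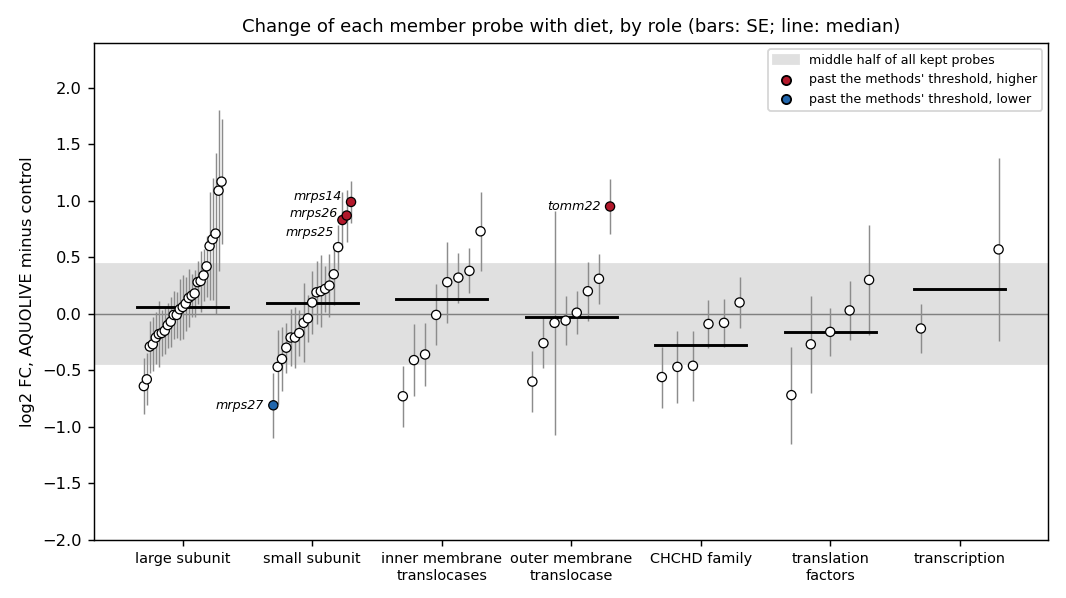
Log2 FC (AQUOLIVE minus control, y axis) of each of the 75 kept member probes, ordered by value within its role on the x axis, with the standard error as bar and the median of each role as black line. The gray band runs from the lower to the upper quartile of all kept probes, and the colored points are the members past the methods' threshold, 3 higher and 1 lower in the small subunit and 1 higher in the outer membrane translocase.

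The small subunit of the mitochondrial ribosome, which binds the mRNA and reads its codons, held 4 of the 5 members past the methods' threshold. That is 21.1% of its probes, beside 9.05% of all kept probes, and the difference was not tested. Which of its genes passed depended on the processing. With the filter on all 6 arrays only mrps14 and mrps25 passed (1124 of all 16663 probes). Under normexp background correction only mrps25 passed (692 of all 25826 probes). Of its 19 kept genes, 10 had a higher and 9 a lower signal, and their median was a log2 FC of 0.10 (all kept probes -0.02). MRPS14 is a conserved small subunit protein with a counterpart in bacteria. Its gene had a normalized log2 signal of 9.21, 9.10 and 9.05 in control pools 1, 2 and 3, and of 9.99, 10.16 and 10.18 in AQUOLIVE pools 1, 2 and 3. Every AQUOLIVE pool was above every control pool, and the gap between the diets was wider than the range within either. The log2 FC was 0.99 (standard error 0.19, 95% confidence interval 0.52 to 1.46), a 1.99-fold higher signal, with an adjusted p of 0.13 from limma. The exact permutation test gave p = 0.1 (two-sided), the smallest that 3 pools against 3 allow.

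The gene of mrps25, another small subunit protein, had 9.21, 9.01 and 8.49 in the control pools and 9.80, 9.73 and 9.66 in the AQUOLIVE pools. Control pool 3 was the lowest of the 6, and the diets did not overlap. Its log2 FC was 0.83 (standard error 0.25, limma adjusted p = 0.194). It passed the methods' threshold under 7 of 8 other processing settings, the deposited values being the exception. When an array was left out, it passed only without control pool 1.

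For mrps26, the signal was close to background. It was 4.33, 4.27 and 4.73 in the control pools, only 1 of which was above background, and 5.22, 5.53 and 5.18 in the AQUOLIVE pools, all above background. The diets did not overlap, and the log2 FC was 0.87 (standard error 0.23, limma adjusted p = 0.173), taken from control values that are in part not well above background. Its size depended on the processing, with 0.28 under normexp background correction, 1.31 with 75th percentile scaling, 1.26 with no filter on dim probes and 2.79 in the unscaled deposited values. It passed the methods' threshold under 4 of 8 other settings and without 4 of the 6 arrays in turn. The 3 AQUOLIVE arrays alone were enough for mrps26 to be kept, and with the filter on all 6 arrays it was not kept. It is counted among the 4 higher members past the methods' threshold and the 9 that lay above the control pools without overlap.

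The only member past the methods' threshold with a lower signal was mrps27, which codes for a pentatricopeptide repeat protein of the small subunit. Its signal was 8.42, 7.97 and 8.75 in the control pools and 7.70, 7.80 and 7.22 in the AQUOLIVE pools. The diets did not overlap, but the gap between control pool 2 and AQUOLIVE pool 2 was small against the range within each diet. The log2 FC was -0.81 (standard error 0.29, limma adjusted p = 0.238). It passed the methods' threshold under 3 of 8 other processing settings and, when an array was left out, only without control pool 2; in the unscaled deposited values the sign turned, to 0.40.

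One more small subunit gene, mrps24, named after its values were seen, did not overlap between the diets with a log2 FC below the minimum of the methods' threshold. It had 8.85, 8.53 and 8.79 in the control pools and 9.24, 9.33 and 9.38 in the AQUOLIVE pools. The log2 FC was 0.59 (standard error 0.20, limma adjusted p = 0.222). The gap was wider than the range of either diet. The 3 versions of the protein S18, of which MRPS18A lies in the large subunit of the mammalian ribosome, did not share a sign, with log2 FC of 0.19 for mrps18a, -0.40 for mrps18b and 0.22 for mrps18c, and overlapped between the diets in each case. The other small subunit genes lay between -0.47 for mrps16 and 0.35 for mrps10 and did not pass limma's unadjusted p of 0.05.

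**Figure D2:**
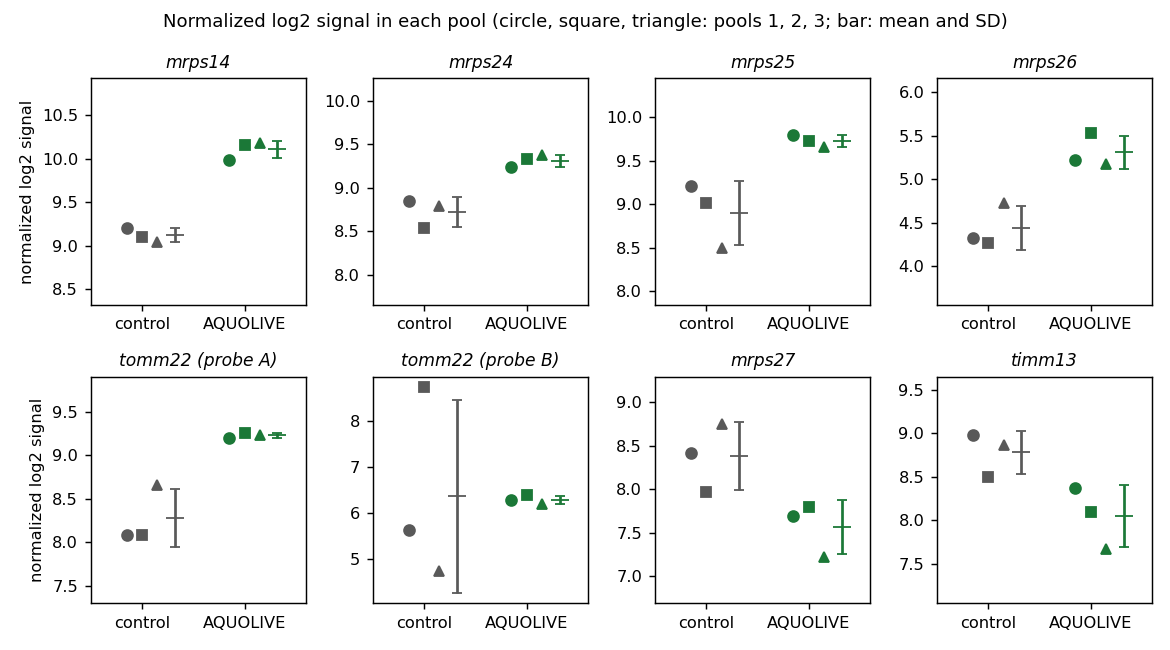
Normalized log2 signal (y axis) in each pool of both diets (x axis) for the 5 members past the methods' threshold, for mrps24 and timm13, and for the other probe of tomm22, with the mean and SD of the 3 pools beside the points. Each panel has its own y range. Every AQUOLIVE pool lies above every control pool for mrps14, mrps24, mrps25, mrps26 and probe A of tomm22, and below it for mrps27 and timm13, while probe B of tomm22 is high in control pool 2 alone.

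The large subunit, which joins the amino acids into a chain, was read by 27 probes, 15 higher and 12 lower (median log2 FC 0.06, all kept probes -0.02). None passed the methods' threshold, beside 9.05% of all kept probes. At limma's unadjusted p under 0.05, 0 were higher and 2 lower (7.41%, beside 18.1% of all kept probes). These 2, named after their values were seen, were mrpl30 and mrpl45, whose product lies at the exit of the peptide tunnel. For mrpl30 the signal was 10.90, 10.47 and 11.18 in the control pools and 10.11, 10.32 and 10.19 in the AQUOLIVE pools (log2 FC -0.64, standard error 0.25, limma adjusted p = 0.261). For mrpl45 it was 8.63, 8.45 and 8.97 in the control pools and 8.25, 8.02 and 8.05 in the AQUOLIVE pools (log2 FC -0.58, standard error 0.23, limma adjusted p = 0.261). Neither overlapped between the diets, and in both genes control pool 3 had the highest signal. In the unscaled deposited values the sign of both turned.

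The 5 highest log2 FC of the large subunit belonged to genes for which control pool 3 was more than 1 below both other control pools. The gene of mrpl9 had 9.09, 8.61 and 6.32 in the control pools and 9.01, 8.92 and 9.38 in the AQUOLIVE pools (log2 FC 1.09, standard error 0.71). Control pools 1 and 2 lay near the AQUOLIVE pools, and the 95% confidence interval ran from -0.63 to 2.82. The same shape was seen for mrpl39, with 11.45, 10.97 and 8.65 in the control pools and 11.02, 11.05 and 11.12 in the AQUOLIVE pools, and for mrpl4, with 10.57, 10.35 and 8.57 in the control pools and 10.53, 10.49 and 10.46 in the AQUOLIVE pools. The 3 AQUOLIVE pools of mrpl4 spanned less than the distance between its other control pools.

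The largest log2 FC of any member was that of mrpl40, at 1.17 (standard error 0.55, limma adjusted p = 0.311). Its signal was 6.47, 6.02 and 4.42 in the control pools, 2 of them above background, and 6.65, 6.59 and 7.19 in the AQUOLIVE pools. The diets did not overlap, but AQUOLIVE pool 2 was closer to control pool 1 than control pool 1 was to control pool 2.

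Control pool 3 stood more than 1 below both other control pools on the log2 scale in 7 of these 74 members (9.46%, beside 9.5% of all such probes): mrpl4, mrpl9, mrpl35, mrpl39, mrpl40, mtif3 and timmdc1. It stood more than 1 above both in 2 of them (2.7%, beside 6.18%). In 35 of the 74 members control pool 3 was the control pool farthest from the others, a share not counted over all probes. Over all such probes, control pool 3 also had the largest mean absolute deviation from the probe means among the control pools. It was 0.68, beside 0.37 in control pool 1 and 0.46 in control pool 2. The control pools spread more than the AQUOLIVE pools in 66 of the 75 members (88%, beside 71.1% of all kept probes), with a median SD of 0.32 in the control pools and 0.13 in the AQUOLIVE pools. Among probes of oxidative phosphorylation genes this share was 85%, and among those of cytosolic ribosomal proteins 95%. The array of control pool 3 also had the lowest median signal of the 6, and the part of signal strength in this spread was not tested.

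**Figure D3:**
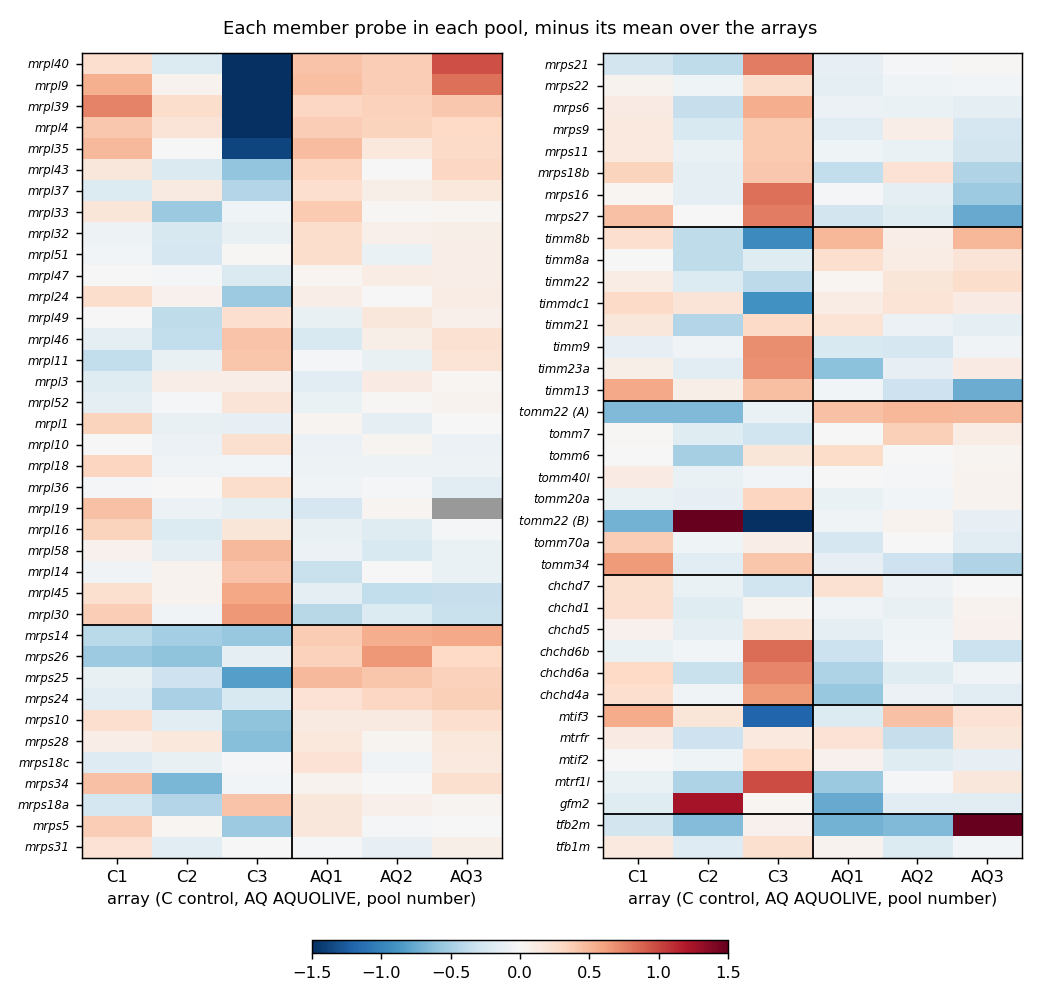
Signal of each kept member probe (rows, grouped by role as large subunit, small subunit, inner and outer membrane translocases, CHCHD family, translation factors and transcription) on each array (columns), as log2 signal minus the mean of that probe over the arrays. Colors stop at 1.5 in each direction, gray marks a spot flagged as an outlier, and the cells at that limit are the low values of mrpl4, mrpl9, mrpl39, mrpl40 and probe B of tomm22 in control pool 3, and the high values of probe B of tomm22 in control pool 2 and of tfb2m in AQUOLIVE pool 3.

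The outer membrane translocase receives precursors from the cytosol. It was read by 8 probes of 7 genes, 4 higher and 4 lower (median log2 FC -0.03). TOMM22 is the central receptor of the complex and its gene was the only one with 2 kept probes, which match different transcripts and are called probe A and probe B. Probe A had 8.09, 8.09 and 8.66 in the control pools and 9.20, 9.26 and 9.24 in the AQUOLIVE pools. The AQUOLIVE pools were close together, with an SD of 0.03, and each lay above every control pool. The log2 FC was 0.95 (standard error 0.24, 95% confidence interval 0.38 to 1.53, limma adjusted p = 0.159), past the methods' threshold.

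Probe B of tomm22 did not show this difference. In the control pools it had 5.62, 8.74 and 4.73, 2 of them above background, with control pool 2 far above the other 5. In the AQUOLIVE pools it had 6.27, 6.38 and 6.20. Its log2 FC was -0.08 with a standard error of 0.99, so its interval, from -2.47 to 2.31, also holds the value of probe A. Without control pool 2 the log2 FC of probe B was 1.01. With 75th percentile scaling and all pools it was 0.16. Its sign thus depended on control pool 2 and on the normalization.

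The other receptors had negative log2 FC of small size. It was -0.06 (95% confidence interval -0.59 to 0.47) for tomm20a, which binds presequences, and -0.26 (-0.79 to 0.26) for tomm70a, which takes up precursors of carrier proteins. For tomm34, a cytosolic partner of the chaperones, the signal was 9.78, 8.99 and 9.56 in the control pools and 9.02, 8.83 and 8.69 in the AQUOLIVE pools (log2 FC -0.60, limma adjusted p = 0.303), and the diets overlapped by AQUOLIVE pool 1. The small subunits tomm6 and tomm7 had log2 FC of 0.20 and 0.31, and tomm40l, a relative of the pore protein, of 0.01.

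The inner membrane translocases and their small chaperones had 4 members higher and 4 lower (median log2 FC 0.14). None passed the methods' threshold. The small TIM proteins, which escort hydrophobic precursors between the membranes, did not share a sign. TIMM8 and TIMM13 proteins form 1 complex, and their genes lay on opposite sides of 0. For timm13 the signal was 8.98, 8.50 and 8.86 in the control pools and 8.37, 8.10 and 7.67 in the AQUOLIVE pools, without overlap (log2 FC -0.73, standard error 0.27, limma adjusted p = 0.246). For timm8a it was 10.10, 9.72 and 9.92 in the control pools and 10.36, 10.22 and 10.30 in the AQUOLIVE pools, also without overlap (log2 FC 0.38, standard error 0.20, limma adjusted p = 0.36). The diets were thus apart in opposite directions for these partners, neither past the adjusted threshold. Under normexp background correction the log2 FC was 0.07 for timm8a and -0.46 for timm13. In the unscaled deposited values both genes were higher (0.36 for timm13).

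The related timm8b had 8.61, 7.98 and 7.41 in the control pools and 8.86, 8.46 and 8.86 in the AQUOLIVE pools (log2 FC 0.73, limma adjusted p = 0.318), with AQUOLIVE pool 2 below control pool 1. The gene of timm9, which forms a complex with TIMM10, had a log2 FC of -0.36 (limma adjusted p = 0.499). The pore genes also differed in sign. The gene of timm22, the pore for carrier proteins, had a log2 FC of 0.32 (95% confidence interval -0.22 to 0.87). That of timm23a, the pore for presequence proteins, was -0.41 (-1.19 to 0.37), with 2 control and 1 AQUOLIVE arrays above background. For timm21, which links the TIM23 complex to TOM, it was -0.01, and its sign changed with the normalization. For timmdc1, an assembly factor of respiratory complex I that the symbol rule takes in, it was 0.28, with control pool 3 low.

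The CHCHD family holds proteins with paired cysteines, many of them of the space between the membranes. Of its 6 members, 5 were lower with the AQUOLIVE diet (16.7% higher, beside 48.6% of all kept probes). One of the 5 was chchd1 (log2 FC -0.08), whose product is a protein of the mitochondrial small subunit and is counted here by its symbol. The median of the family was -0.27 on the log2 FC scale, and none of its members passed a test. In the unscaled deposited values the median of the family was 0.81, beside 0.98 over all kept probes. CHCHD4 is the import receptor and oxidase that folds proteins of the space between the membranes. Its gene chchd4a had 7.93, 7.62 and 8.31 in the control pools and 7.10, 7.58 and 7.50 in the AQUOLIVE pools. The diets did not overlap, by a narrow gap between control pool 2 and AQUOLIVE pool 2 (log2 FC -0.56, limma adjusted p = 0.319). Both salmon copies of CHCHD6, a protein of the inner membrane folds, had nearly the same log2 FC, of -0.47 for chchd6a and -0.46 for chchd6b, and in both control pool 3 was the highest of the 6. Without control pool 3 the median of the family was -0.11.

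The translation factors were read by 5 probes, 2 higher and 3 lower (median log2 FC -0.16), and none passed a test. The log2 FC of mtif2, which brings the first tRNA to the ribosome, was -0.16 (95% confidence interval -0.67 to 0.36), and that of mtrfr, which rescues stalled ribosomes, was 0.03 (-0.60 to 0.67). The gene of mtif3, the initiation factor that keeps the subunits apart, was low in control pool 3 alone. It had 6.05, 5.67 and 4.30 in the control pools, 2 of them above background, and 5.28, 5.93 and 5.71 in the AQUOLIVE pools. For gfm2, which splits the ribosome after termination, it was control pool 2 that stood apart, with 4.99, 6.42 and 5.20 in the control pools and 4.42, 5.01 and 5.00 in the AQUOLIVE pools (log2 FC -0.72, limma adjusted p = 0.392). Neither difference was larger than the spread between pools.

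Of the transcription factors of the mitochondrial genome, tfb1m, a methyltransferase of the small ribosomal RNA, had a log2 FC of -0.13 (95% confidence interval -0.66 to 0.40). The gene of tfb2m, needed to start transcription, was high in AQUOLIVE pool 3 alone. It had 4.99, 4.62 and 5.34 in the control pools, only 1 of them above background, and 4.56, 4.61 and 7.50 in the AQUOLIVE pools. Its log2 FC of 0.57 became -0.40 without AQUOLIVE pool 3. The neighboring genes mrpl46 and mrps11, the only member pair that lies next to each other in the gene table, had log2 FC of 0.06 and -0.30.

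Other genes of mitochondrial gene expression and import, from a list outside the symbol rule, were read by 32 kept probes, with 31 of the 72 listed genes among them. Of these probes, 18 were higher and 14 lower (median log2 FC 0.14), none passed limma's adjusted threshold, and 3 passed the methods' threshold, all with a higher signal (9.38%, beside 9.05% of all kept probes in both directions and 5.22% with a higher signal). The probe with the smallest adjusted p was that of trmt10c, a subunit of the enzyme that trims the front end of mitochondrial tRNAs. It had 6.37, 6.53 and 6.49 in the control pools and 7.34, 8.32 and 8.07 in the AQUOLIVE pools, without overlap (log2 FC 1.45, standard error 0.30, limma adjusted p = 0.136). The others were aifm1, whose product works with CHCHD4 (log2 FC 1.31, limma adjusted p = 0.163), and mrm3a, a methyltransferase of the large ribosomal RNA (log2 FC 1.16, limma adjusted p = 0.184). In both of these control pool 3 was the lowest of the 6. The highest log2 FC of the list was 1.84, for dnajc19 (limma adjusted p = 0.263), without overlap and with control pool 3 low. The lowest was -2.48, for noa1 (limma adjusted p = 0.305), with overlap and 1 AQUOLIVE array above background. For grpel2, near background, it was -0.99 without overlap (limma adjusted p = 0.258). For pmpca, a subunit of the protease that removes presequences, it was -0.94 without overlap (limma adjusted p = 0.228). In the methods' t-test these 4 genes had an unadjusted p above 0.05. Limma's unadjusted p was under 0.05 for dnajc19, grpel2 and pmpca, but not for noa1. Without overlap were 43.8% of the probes, beside 29.7% of all such probes, a difference that was not tested.

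The members were also set beside the gene groups most like them. The oxidative phosphorylation group was picked by symbol. Beside the subunits it thus holds assembly factors (such as ndufaf1, sdhaf1 and cox10) and the inhibitors atp5if1a and atp5if1b. Among its 60 probes, 41 were higher with the AQUOLIVE diet (68.3%, median log2 FC 0.14), and 2 passed the methods' threshold (3.33%, beside 9.05% of all kept probes). Among 40 probes of cytosolic ribosomal proteins, 34 were higher (85%), with a median of 0.41, and 8 passed the methods' threshold, all with a higher signal (20%, beside 5.22% of all kept probes with a higher signal). That median was 0.38 with the filter on all 6 arrays, 0.39 with outlier spots kept, 0.42 with loess against all 6 arrays and 0.43 with quantile normalization. It was 0.52 with a replicate block, 0.65 with no filter on dim probes, 0.71 with normexp and 0.91 with 75th percentile scaling. In the unscaled deposited values it was 1.74. Among the members, 49.3% were higher, with a median of -0.01. None of the 3 groups had a probe past limma's adjusted threshold. Probes of a group share the same arrays, so the difference between the groups was not tested. Without control pool 3, the shares higher were 60% for oxidative phosphorylation, 75% for cytosolic ribosomal proteins and 50.7% for the members. Outlier flags left 15 of the 40 cytosolic ribosomal probes with all 6 values.

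**Figure D4:**
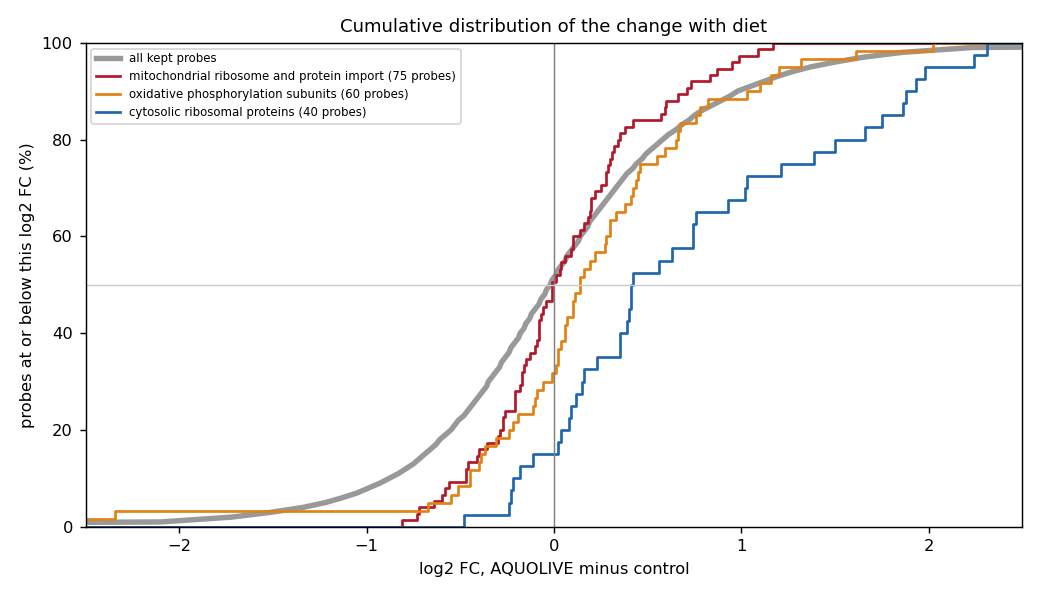
Share of probes at or below each log2 FC (x axis, AQUOLIVE minus control; y axis, percent) for the members, the oxidative phosphorylation subunits, the cytosolic ribosomal proteins and all kept probes. The curve of the members crosses the middle near 0, with a median of -0.01, and is steeper than that of all kept probes, while that of the cytosolic ribosomal proteins lies to the right, with a median of 0.41. The x axis stops at 2.5 on either side, and a few probes lie beyond it.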

How the data were processed

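HK RNA of 3 control and 3 AQUOLIVE pools was measured on one-color arrays. The authors deposited an intensity per spot, extracted with Feature Extraction (10.7.3.1 per the file headers), and a log2 value per spot. The latter is the background-subtracted signal on the log2 scale (tolerance 1e-08), unscaled between arrays. The genome build of the probe design is not given in the sources used here, so no coordinates are printed.

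R 4.3.3 was used on the log2 of the processed intensity, without control spots and with outlier-flagged spots missing. Kept probes were read well above background by at least 3 of 6 arrays. Robust loess (span 0.3, 4 iterations) was fitted to the log2 ratio of an array to the 3 control arrays' mean and subtracted. Spots of a probe were averaged. Every adjusted p comes from limma 3.58.1 unless said otherwise (lmFit and eBayes, two-sided, Benjamini-Hochberg over all kept probes, threshold 0.05). The methods' threshold is the methods' t-test (unpaired, equal variance, unadjusted p under 0.05) together with an absolute log2 FC of at least 0.8, the smallest the study lists. The code was tested on simulated data. No array had a saturated spot, and the number of arrays limits the precision.

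Probe names hold a RefSeq accession, which was looked up without its version in the Ssal_v3.1 gene table: 25641 of 40933 accessions matched, 8155 with a symbol. Members, gene lists and tests were chosen with earlier results of these data known. Named are members past a threshold without overlap between the diets, a set list of translocases and factors whatever their values, and genes with several copies or probes; further genes are said to be named after their values were seen, or are given as the range of their role or by the pool that stands apart. Sequences of the members were not analysed here. Alternatives were 75th percentile scaling, quantile normalization, another loess reference, normexp, the deposited log2 values, other filters, outlier spots kept, a replicate block, 1 probe per gene and leaving out each array. When an array was left out, the filter still read all 6 arrays, a choice made after a first run with the filter on the remaining arrays had been seen.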

Additional observations from a re-analysis of the deposited data

How the results depend on the processing

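No member passed limma's adjusted threshold under any alternative run, the methods' t-test with adjustment and each left-out array included; with the filter on all 6 arrays the smallest adjusted p was 0.0743. The count past the methods' threshold, 5 in the values reported, was 1 with normexp, 9 with the deposited log2 values and 3 with the filter on all 6 arrays. Over all probes the count was 2336 of 25826 in the values reported. It was 692 of 25826 with normexp, 2541 of 25820 with the deposited values and 1124 of 16663 with that filter. When an array was left out, 2 to 7 members passed, beside 1119 to 2504 of all probes. The members were 3 without control pool 3 (1621 of all probes), 2 without AQUOLIVE pool 2 (2219) and 3 without AQUOLIVE pool 3 (1119). Probe A of tomm22 and mrps14 passed without each array in turn, and under 7 of 8 other settings, normexp being the exception. The count without overlap, 16, was 7 with normexp (9.46%, beside 19.4% of all probes), 51 with the deposited values (70.8%, beside 46%) and 18 to 31 without an array (24 to 41.9%, beside 33.6 to 42.9%), where fewer pools have to be apart. It was 30 without control pool 1, 31 without control pool 2 and 27 without AQUOLIVE pool 2. The median log2 FC ranged from -0.09 to 0.07 and the share higher from 44 to 54.7% when an array was left out. The deposited values, not scaled between arrays, gave a median of 0.86 and 98.7% higher, where the median of all probes was 0.98 and 92.9% were higher. Under 75th percentile scaling the median of all probes was 0.07.

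The sign turned in the deposited values, where nearly all probes are higher, for chchd4a (0.43), chchd6a (0.76), chchd6b (0.44), gfm2 (0.26), mrps18b (0.36), mrps27 (0.40), mtif2 (0.63), tfb1m (1.12), timm13 (0.36), timm21 (0.62), timm23a (0.90), timm9 (0.22), tomm20a (0.54), tomm34 (0.28) and tomm70a (0.57). Elsewhere it turned for timm21, whose log2 FC was 0.08 with 75th percentile scaling, 0.01 with quantile normalization, 0.08 with the filter on all 6 arrays and -0.24 to 0.15 without an array (0.11 without control pool 1, 0.15 without control pool 3, 0.03 without AQUOLIVE pool 2 and 0.05 without AQUOLIVE pool 3). It also turned for probe B of tomm22 (0.16 with 75th percentile scaling, 1.01 without control pool 2, -0.84 to 1.01 over the left-out arrays), tfb1m (0.17 with normexp), mtif3 (-0.14 without control pool 3, up to 0.73), tomm20a (0.08 without control pool 3, down to -0.14) and tfb2m (-0.40 without AQUOLIVE pool 3, up to 1.07). Apart from these constructions, the cause was not tested.

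Each diet had its own tanks and the paper's test was unpaired, so the stated design does not link pools of the same number. With 3 pools per diet, the values could not settle whether pool numbers pair the samples in another way. Pools of the same number correlated at 0.21, -0.06 and 0.03 in their deviations from the diet means. Pools of different numbers correlated at -0.23 to 0.19, and not every pool correlated best with its own number. With the pool number as a replicate block, limma called 0 of all kept probes (4 without the block) and 0 members. At an unadjusted p under 0.05 it called 4 members, against 9 without the block (12%, beside 18.1% of all kept probes). The share of all kept probes at that p with the block was not counted. No block was possible for the counts of the methods' threshold and of overlap, which come from unpaired comparisons. The files hold no mean signal, so normexp was run on the median signal. Of the 75 probes, 7 were not well above background on every array. With 3 pools per diet and a median standard error of 0.26, small changes could not be told from none.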
